A study of Mus musculus with 17 samples.

Results

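The comparison is between offspring of dams fed a high-fat diet (HFD) and offspring of dams fed chow, both taken at weaning on postnatal day 21 (P21). It holds 7 of the 17 libraries of the series, 4 HFD and 3 chow, chosen by their labels alone. Every library, HFD or chow, came from a POMC RiboTag mouse, in which a ribosomal protein carries an HA tag in cells marked through the Pomc gene. Pomc is known to be active early in progenitors of several arcuate neurons, including some that later make AGRP and NPY, so the tagged population may be wider than POMC neurons. RNA bound to the tagged ribosomes was pulled down from the mediobasal hypothalamus. Per the labels' protocols, dams were 6 weeks old when they began standard Teklad Global chow or a 45% HFD from Research Diets. They were mated 4 weeks later and kept the same diet until their pups reached P21. The other 10 libraries, 5 per diet, came from pups on postnatal day 0 (P0). The labels call the samples biological replicates without naming animals, litters, pools, sex or batch, and the p-values therefore describe only how far these samples lie apart. Pomc took 0.379% to 1.17% of the summed values of each P21 library and 0.010% to 0.124% of those of each P0 library. Genes of glia and vessels were also present in each library, with the values given further on.

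POMC (pro-opiomelanocortin) neurons of the arcuate nucleus cut POMC into melanocortin peptides that act on melanocortin receptors and reduce food intake. Many of them also make the peptide CART and sense leptin, whose receptor signals through the transcription factor STAT3. Neighbouring neurons that make AGRP and NPY oppose them, in part by blocking melanocortin receptors and by acting on NPY receptors of the POMC neurons. Around weaning, arcuate projections mature, oligodendrocytes are laying down myelin, and astrocytes and tanycytes line and support the same tissue.

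The P21 libraries held 22.4 M to 37.1 M reads counted to genes, with chow replicate 3 the lowest. A value is a normalized read count in units close to CPM (reads scaled to a fixed library total), in which 1 read was worth 0.0275 to 0.0460. Differences below are HFD minus chow on the scale of log2(value + 1), which understates changes of genes near 0. Chow replicate 3 stood apart from the other 2 chow libraries. Its Pomc value was 12069.6 against 4679 and 3878, while Agrp was 14.0 against 184 and 132.5 and Npy was 51.9 against 506 and 437. It also had the highest oligodendrocyte, astrocyte and microglial levels of the 7 libraries. On the first principal component, which took 33.6% of the variance, it lay at -54.2, with the other chow libraries at -10.9 and -20.9 and the HFD libraries between 7.86 and 34.1. For this reason the calls, most of the list medians and many of the single differences are given with and without it. A difference given only once can also move. Without this library that of Meis2 went from -1.68 to -1.15, that of Otx2 from -1.50 to -1.02 and that of Mag from -1.47 to -1.05.

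Of 14070 genes tested, 25 passed at an adjusted p of 0.05. In all, 14 rose (0.0995% of the genes tested) and 11 fell (0.0782%). Of the rises, 2 were in the neuronal lists (Cartpt and Npy1r), 3 in the list of STAT3 and acute-phase genes (Timp1, Serpina3n and Tnfrsf11b) and 1 in that of immediate early genes (Junb). Of the falls, 5 were in the glial lists (Hepacam, Gjb6, Apoe, Agt and Sirt2). Without chow replicate 3, 15 genes passed, of which 14 rose (0.0995%) and 1, Rbm3, fell (0.00711%). The fits shared 11 genes, all of which rose. None of the 11 falls passed without that library (0 of 11). All 25 genes kept their direction, which was fixed beforehand because their groups did not overlap. The count also depended on other libraries. Leaving out chow replicate 1 gave 51 genes, 37 of them lower, and leaving out chow replicate 2 gave 6, none of them lower. Leaving out HFD replicate 1 gave 3 genes and leaving out HFD replicate 4 gave 7, in both cases with no fall. Leaving out HFD replicate 2 or 3 gave 26 or 17 genes, with 14 or 7 lower. Cartpt, Asb4 and Npy1r passed in each of the 7 fits that leave out 1 library. When the columns were rescaled to the same sum, 13 genes rose and 22 fell, and the median difference of all genes moved from -0.02 to -0.09.

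**Figure D1:**
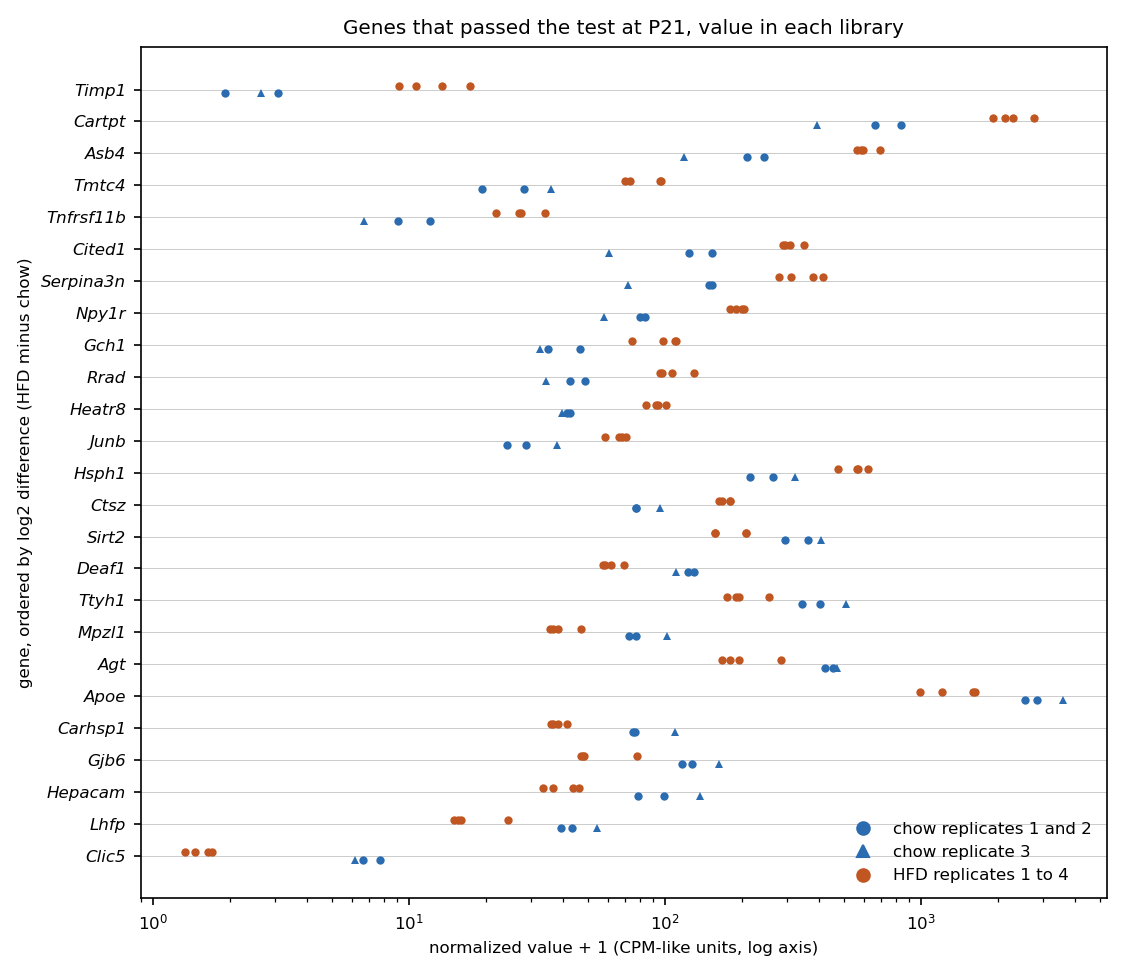
Normalized value plus 1 (log axis) of the 25 genes that passed the test at P21, 1 row per gene, in the 3 chow (blue, replicate 3 as a triangle) and 4 HFD (orange) libraries. In each row the chow and HFD libraries do not overlap, and chow replicate 3 is the lowest of the 7 for Cartpt, Asb4, Npy1r, Heatr8, Rrad, Gch1, Cited1, Serpina3n and Tnfrsf11b.

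The neuronal, glial and vascular lists differed in how their members lay. As a measure that needs no threshold, genes were counted for which all 4 HFD libraries lay on 1 side of all 3 chow libraries. Over all genes tested, 1173 (8.34%) were higher and 1095 (7.78%) lower in HFD by this count. Among 271 neuronal genes 13.7% were higher and 7.01% lower, with a median difference of -0.003. Among 116 glial genes 1.72% were higher and 47.4% lower, with a median of -0.87. Among 52 vascular genes none was higher (0 of 52), 13 were lower (25%) and the median was -0.62. Leaving out chow replicate 3 can only keep or raise this count, with fewer libraries to be kept apart. Over all genes the count then gave 1544 higher (11.0%) and 1548 lower (11.0%). It then gave 16.2% higher and 8.49% lower for neuronal genes, 1.72% and 47.4% for glial genes, and 0% and 36.5% for vascular genes. The medians without chow replicate 3 were 0.00 for neuronal, -0.62 for glial and -0.66 for vascular genes, against -0.02 for all genes.

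**Figure D2:**
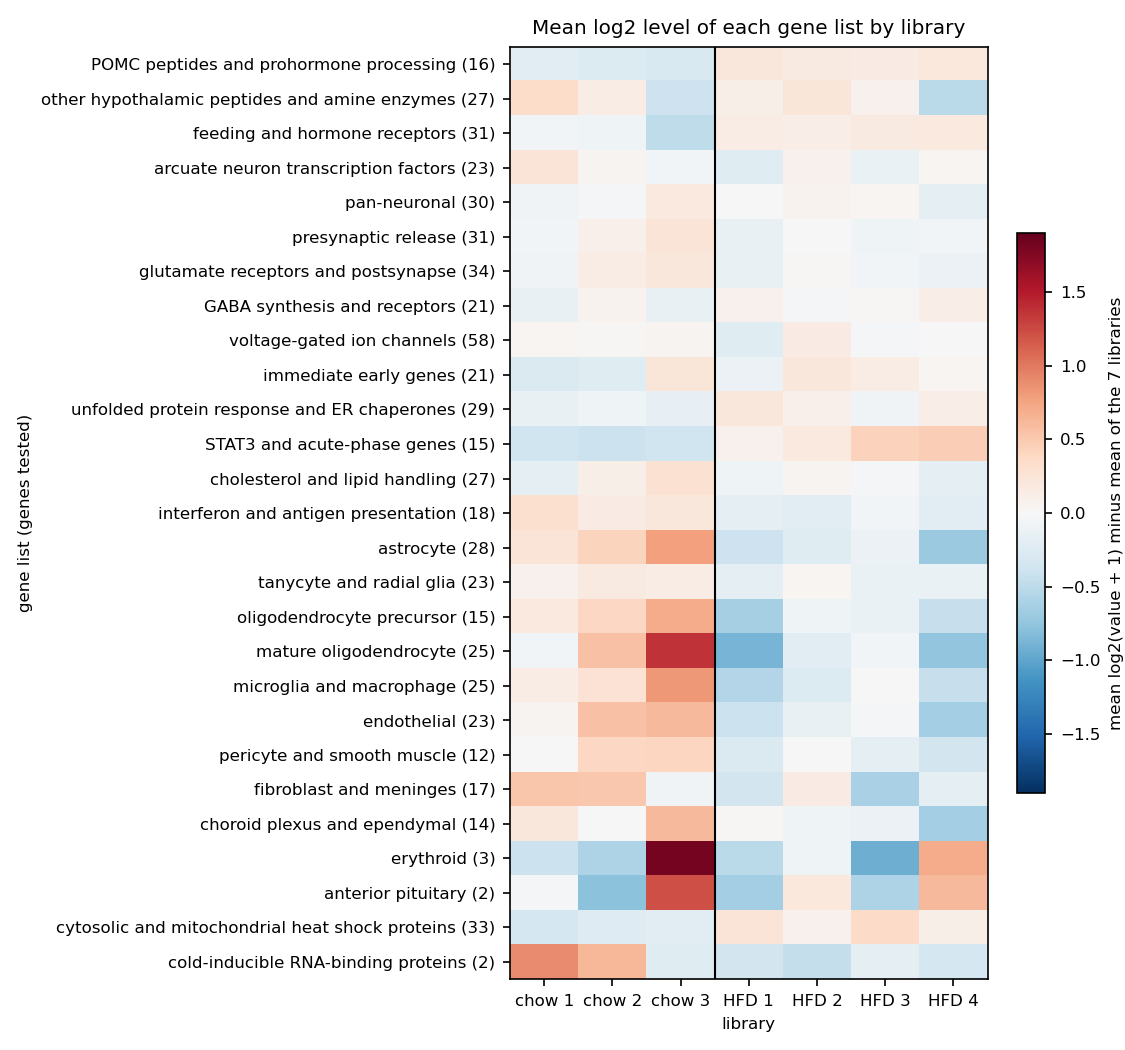
Mean log2(value + 1) of the tested members of each gene list in each library, minus the mean over the 7 libraries (red above, blue below), with the number of genes in brackets. The mature oligodendrocyte row runs from 1.38 above the mean in chow replicate 3 to -0.89 in HFD replicate 1, with chow replicate 1 and HFD replicate 3 both close to the mean, while the POMC peptide row is above the mean in the 4 HFD libraries and below it in the 3 chow libraries.

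The POMC neuron peptides came first among the neuronal genes. Cartpt, which encodes the appetite-reducing peptide CART, measured 834, 663 and 391 in the chow libraries and 2761, 2139, 2287 and 1912 in the HFD libraries. Every HFD library was above the highest chow library, also among the chow libraries that resemble each other. The difference was 1.91 (SE 0.23, adjusted p = 0.0137), and 1.60 without chow replicate 3 (adjusted p = 0.0114). Pomc itself measured 4679, 3878 and 12069.6 in chow and 9818, 8268, 7460 and 8528 in HFD. The HFD libraries were alike, whereas the chow libraries lay on both sides of them. The difference was 0.49 (SE 0.31, adjusted p = 0.447) with all 7 libraries. Without chow replicate 3 it was 0.99, and that value sat at the threshold, with an adjusted p of 0.0513 over the same 14070 genes and 0.0498 over 14280 genes when the expression minimum was asked of 2 of the 6 libraries.

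Cartpt lies on chromosome 13 from 99898489 to 99901091 (mm10, minus strand). Its promoter is shown because the gene passed with all 7 libraries and in each of the 7 fits that leave out 1 library, and the window holds the full cyclic AMP response element TGACGTCA, a palindrome read alike on both strands, in capitals. The element begins 112 bases before the RefSeq start (GRCm38.p6, chr13:99900684-99900933, minus strand, 5′ to 3′). It occurs in 1.55% of 32851 RefSeq promoter windows of the same length. The GENCODE gene model begins further upstream than the RefSeq start, so this window lies inside the gene span given above. A match is a stretch of letters and not a measured site.
Cartpt: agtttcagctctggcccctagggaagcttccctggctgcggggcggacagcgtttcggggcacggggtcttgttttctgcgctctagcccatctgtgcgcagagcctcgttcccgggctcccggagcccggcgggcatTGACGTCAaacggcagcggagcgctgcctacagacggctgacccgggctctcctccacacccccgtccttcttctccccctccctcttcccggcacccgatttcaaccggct

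Members of the lists that are named below because the groups did not overlap were in part picked out after their values were seen. In the list of POMC peptides and prohormone processing, 1 of 16 genes passed (Cartpt) and 14 had a difference above 0, with a median of 0.32 (0.39 without chow replicate 3). Pcsk1, the convertase that makes the first cuts in POMC, measured 71.6, 64.2 and 36.3 in chow and 136.8, 96.4, 90.7 and 109.3 in HFD. These did not overlap, and the difference of 0.95 did not pass (adjusted p = 0.102). Scg2 and Chgb, granins of the dense-core vesicles that store peptides, were at 0.61 and 0.53, likewise without overlap. Cpe, which trims the cut peptides, was the member lower in all 4 HFD libraries, at -0.44. The differences of Pcsk1, Scg2 and Chgb shrank to 0.65, 0.45 and 0.45 without chow replicate 3, the library with the lowest values of each.

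Receptors for NPY, melanocortins and hormones made up the neuronal list with the most genes higher in HFD. Npy1r, the Y1 receptor for NPY, measured 79.0, 82.8 and 56.7 in chow and 199, 178, 203 and 188 in HFD. The HFD libraries were all more than 2 times the chow mean of 72.8. It rose by 1.41 (SE 0.16, adjusted p = 0.0137), and by 1.24 without chow replicate 3 (adjusted p = 0.0149). Npy5r, the Y5 receptor, lies next to Npy1r on chromosome 8 on the opposite strand (Npy5r from 66679965 to 66688128, Npy1r from 66697192 to 66706792, mm10). It measured 18.1, 26.1 and 12.6 in chow and 45.3, 37.2, 56.4 and 35.2 in HFD, a difference of 1.19 that did not pass (adjusted p = 0.0796). Npy2r, the Y2 receptor that restrains peptide release, was at 1.16 (0.70 without chow replicate 3) and did not pass either.

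Of the 31 receptor genes tested, 9 were higher in all HFD libraries and 2 lower, against the 8.34% and 7.78% of all genes. The median was 0.35, and 0.26 without chow replicate 3. Besides the NPY receptors, the higher ones were the melanocortin receptors Mc4r (0.92 with or without chow replicate 3) and Mc3r (0.92, or 0.50 without it), the leptin receptor Lepr (0.79), the growth hormone receptor Ghr (0.76, or 0.50 without it), the orphan receptor Gpr83 (0.71) and the glucocorticoid receptor Nr3c1 (0.35). Lepr was low throughout, at 7.47, 3.69 and 4.14 in chow and 8.66, 12.8, 7.97 and 8.02 in HFD (adjusted p = 0.229). The lower ones were Igf1r (-0.56) and Ntrk2 (-0.33), receptors for insulin-like growth factor 1 and for BDNF. In this list Npy1r alone passed.

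Asb4, Cited1, Rrad, Gch1 and Ctsz also rose. Asb4, a substrate adaptor of ubiquitin ligases that is abundant in arcuate neurons, measured 208, 242 and 117 in chow and 690.2, 591, 562 and 580.4 in HFD. The lowest HFD value was more than 2 times the highest chow value, and the difference was 1.73 (SE 0.21, adjusted p = 0.0137), or 1.42 without chow replicate 3 (adjusted p = 0.0114). Cited1, a transcriptional co-activator, measured 152, 124 and 59.3 in chow and 293, 288, 349 and 308 in HFD. It rose by 1.56, and by 1.16 without chow replicate 3 (adjusted p = 0.0181). Rrad, a small GTP-binding protein that inhibits voltage-gated calcium channels, measured 41.6, 47.9 and 33.3 in chow and 128.7, 95.0, 105.3 and 96.5 in HFD. It rose by 1.36, and by 1.22 without chow replicate 3 (adjusted p = 0.0391).

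Gch1, the first enzyme of tetrahydrobiopterin synthesis, on which amine and nitric oxide synthesis depend, measured 34.1, 45.7 and 31.5 in chow and 109.1, 97.0, 73.4 and 108.2 in HFD. It rose by 1.36 (adjusted p = 0.0199) and no longer passed without chow replicate 3 (1.26, adjusted p = 0.0723). Ctsz, a lysosomal cysteine protease, measured 75.9, 76.5 and 94.8 in chow and 178.8, 165.9, 179.2 and 161.4 in HFD. It rose by 1.05, and by 1.16 without chow replicate 3 (adjusted p = 0.0149). Tmtc4, a mannosyltransferase of the endoplasmic reticulum, went from 18.4, 27.1 and 34.8 to 95.7, 71.9, 68.9 and 94.4, a rise of 1.62 (1.83 without chow replicate 3). Of its exonic bases 19.1% are shared with a non-coding transcript on the opposite strand, and the strand setting of the counting is not given in the sources used here. Heatr8, a HEAT-repeat gene, measured 40.6, 41.5 and 38.7 in chow and 99.8, 92.8, 91.1 and 83.7 in HFD and rose by 1.17 (1.14 without chow replicate 3).

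The peptides of neighbouring neurons were mixed. No gene of the 27 tested passed with limma (0 of 27, with 7 at an unadjusted p under 0.05). Agrp, the melanocortin blocker, measured 184, 132.5 and 14.0 in chow and 147, 121, 265 and 231 in HFD. Its difference of 1.35 (adjusted p = 0.329) came to 0.22 without chow replicate 3. Npy followed it, at 1.29 with and 0.24 without that library. Oxytocin (Oxt) measured 146, 117 and 94.5 in chow against 45.5, 72.3, 45.8 and 11.4 in HFD, and thyrotropin-releasing hormone (Trh) 98.0, 65.1 and 56.1 against 41.4, 42.3, 37.8 and 29.6. Both peptides are mainly made by paraventricular neurons, and both were lower in each HFD library (-1.66 and -0.91, adjusted p = 0.121 and 0.0971). The opioid precursor Penk (-0.62) and neurotensin, Nts (-0.42), were lower as well, while the opioid precursor Pdyn (0.66) and PACAP, Adcyap1 (0.31), were higher. Without overlap 4 of the 27 were lower and 2 higher, against 7.78% and 8.34% of all genes. The summed level of the list overlapped between the groups.

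Transcription factors of arcuate neurons and genes shared by most neurons moved little. None of the 23 transcription factors passed (0 of 23, with 5 at an unadjusted p under 0.05), and 4 did not overlap between the groups, Six6 (0.53) and Nr5a1 (0.47) higher, Meis2 (-1.68) and Dlx1 (-0.78) lower. Over all genes 8.34% were higher and 7.78% lower without overlap, so 2 of 23 in each direction was near that share. The median of the list was -0.21, and -0.19 without chow replicate 3. Meis2 measured 7.62, 8.40 and 26.1 in chow and 1.72, 4.20, 4.38 and 2.59 in HFD, with chow replicate 3 the highest. No pan-neuronal gene passed (0 of 30, with 6 at an unadjusted p under 0.05), and the list had a median of -0.06 (0.04 without chow replicate 3). The summed level was between 19700.0 and 22380.0 in the chow libraries and between 20630.0 and 22670.0 in the HFD libraries, which overlap. In that list Elavl4, an RNA-binding protein of neurons (0.66), Gap43, a growth-cone protein (0.33), the microtubule protein Map1b (0.24) and the enolase Eno2 (0.19) were higher in each HFD library and Nrsn1, a neurite protein, lower (-0.44). Tubb3, neuronal tubulin, overlapped at 0.28.

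Synaptic and channel genes were also spread around 0, and no gene of these 4 lists passed. Without chow replicate 3 the list medians were -0.08 (presynaptic), -0.03 (glutamatergic), 0.14 (GABA) and -0.08 (channel). At an unadjusted p under 0.05 were 9 of 31 presynaptic, 9 of 34 glutamatergic, 7 of 21 GABA and 10 of 58 channel genes, against 2393 of all 14070 genes (17%). Among 31 presynaptic genes (median -0.13) the synaptotagmins Syt4 (0.69) and Syt5 (0.60) and the adhesion molecule Nrxn3 (0.32) were higher. The vesicle priming factors Unc13a (-0.84) and Rims2 (-0.24), the SNARE protein Vamp1 (-0.77, or -0.48 without chow replicate 3), complexin 2, Cplx2 (-0.60), and rabphilin, Rph3a (-0.42), were lower. Among 34 glutamatergic genes (median -0.10) the receptor subunits Gria2 (0.53), Gria1 (0.31), Gria4 (0.37) and Grm5 (0.37) were higher and the scaffold Dlgap1 (-0.52) lower. Slc17a7, a vesicular glutamate transporter of cortical neurons, measured 7.14, 30.2 and 71.6 in chow and 0.91, 4.36, 7.33 and 0.83 in HFD. At -2.90 its difference had the largest size in the neuronal lists, but the groups overlapped and it did not pass (adjusted p = 0.0996).

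Both GABA-synthesizing enzymes were higher without overlap. Gad1 measured 149, 193 and 215 in chow and 298, 303, 297 and 291 in HFD (0.69, adjusted p = 0.0742, and 0.81 without chow replicate 3), and Gad2 was at 0.41. The receptor subunit Gabrq (0.79, or 0.30 without chow replicate 3) was higher too, and the chloride importer Slc12a2 (-0.57) lower, in a list of 21 with a median of 0.19. Among 58 channel genes (median -0.08) the cation channel Trpc4 (1.02), the sodium channel subunits Scn9a (0.87), Scn3a (0.39, or 0.22 without chow replicate 3) and Scn3b (0.31) and the potassium channel Kcnj3 (0.70) were higher. These 5 were near the 8.34% of all genes higher without overlap, and 1 channel gene was lower, against 7.78%. Of the 58, 35 had a difference below 0, the lowest at -1.29. Of the neuronal genes with a difference below 0, several were highest in chow replicate 3. Among them were Meis2, Slc17a7, Vamp1, Cpe, Nrsn1, Penk, Cplx2, Dlgap1 and Ntrk2. Others, such as Oxt, Nts, Dlx1 and Igf1r, were highest in another chow library.

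**Figure D3:**
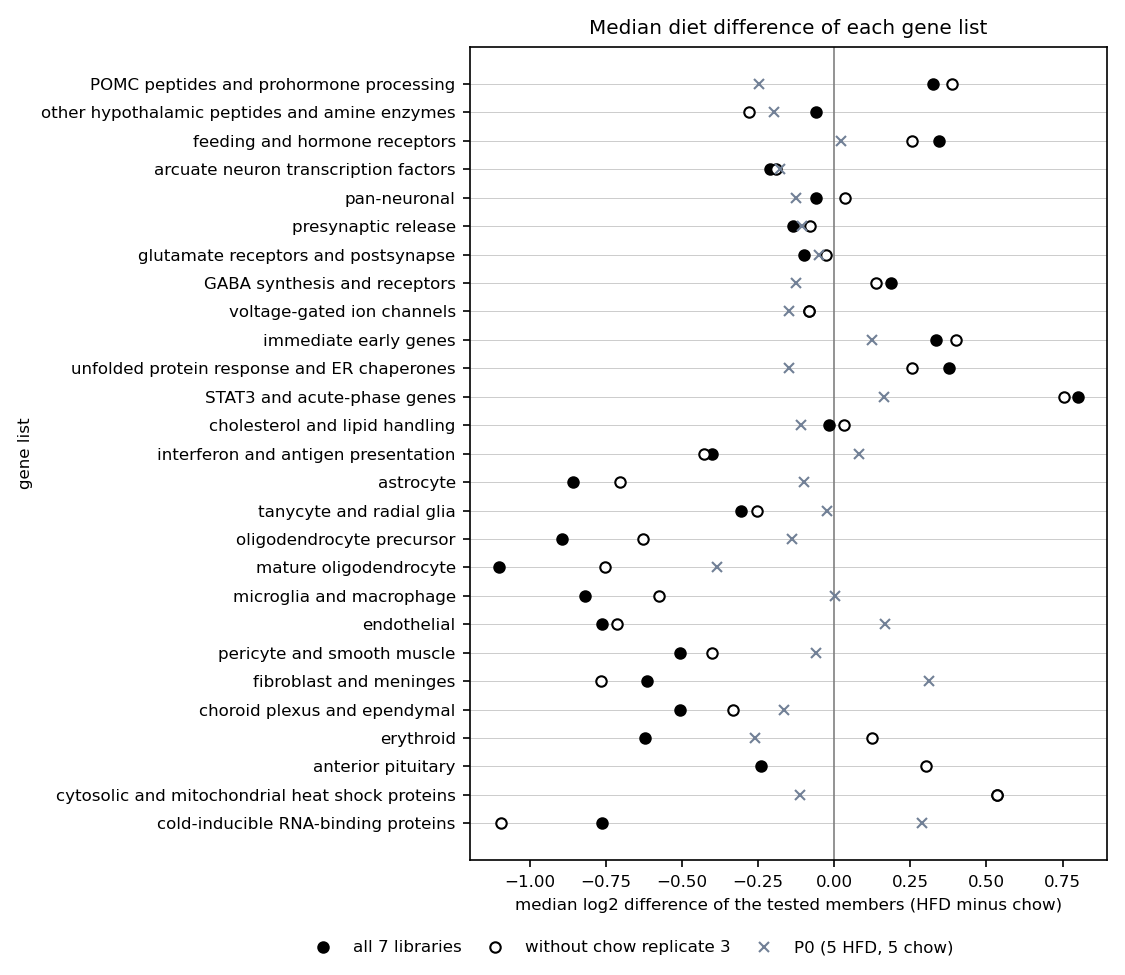
Median log2 difference (HFD minus chow) of the tested members of each gene list with all 7 P21 libraries (filled), without chow replicate 3 (open) and at P0 (crosses). The mature oligodendrocyte median lies at -1.10 and at -0.75 without chow replicate 3, the STAT3 and acute-phase median at 0.80 and 0.76, and the heat shock median at 0.53 in both.

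Targets of cytokine and leptin signalling formed the list with the highest median of those examined. In the list of STAT3 and acute-phase genes, 3 of 15 passed and 8 were higher in all HFD libraries, with a median of 0.80 (0.76 without chow replicate 3). Over all genes tested 0.0995% rose and 8.34% were higher in all HFD libraries. The list was chosen with earlier results of these data known. Timp1, an inhibitor of matrix metalloproteases, measured 0.92, 2.09 and 1.65 in chow and 12.4, 16.3, 9.67 and 8.15 in HFD. The lowest HFD value was several times the highest chow value, and it rose by 2.29 (SE 0.32, adjusted p = 0.0199). Without chow replicate 3 the difference was 2.33 and the adjusted p 0.0513. Serpina3n, a serine protease inhibitor of the acute phase, measured 152, 147 and 70.5 in chow and 310, 277, 413 and 378 in HFD. It rose by 1.54, and by 1.18 without chow replicate 3 (adjusted p = 0.0391). Tnfrsf11b, the decoy receptor osteoprotegerin, measured 8.09, 11.1 and 5.65 in chow and 33.0, 25.9, 20.8 and 26.4 in HFD and rose by 1.59 (adjusted p = 0.0436), or 1.37 without chow replicate 3 (adjusted p = 0.156).

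Socs3, the feedback inhibitor induced by STAT3 downstream of leptin, measured 2.21, 2.34 and 4.69 in chow and 11.1, 10.2, 9.73 and 12.3 in HFD. All 4 HFD values were more than 2 times the highest chow value. The difference of 1.58 fell short of the threshold (adjusted p = 0.0649, and 0.0523 without chow replicate 3). Stat3 itself measured 95.8, 139 and 80.6 in chow and 187, 201, 180.2 and 262 in HFD (0.99, adjusted p = 0.0676). Its relatives in feedback, Cish and Socs2, which answer to STAT5, were at 1.19 and 0.61, and the interleukin 1 receptor Il1r1 was at 0.80. Stat3, Cish, Socs2 and Il1r1 were picked out after their values were seen. Lower values occurred in the list too, with the interleukin 6 receptor Il6ra at -1.06 (-0.65 without chow replicate 3). The summed level of the list was 278 to 402 in chow and 648 to 840 in HFD, and these ranges did not meet.

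The Socs3 promoter is shown for the STAT-type match TTCNNNGAA (N is any base), in capitals, which begins 154 bases before the RefSeq start (GRCm38.p6, chr11:117969367-117969616, minus strand, 5′ to 3′). As for Cartpt, the window lies inside the longer GENCODE span of the gene (chromosome 11 from 117966079 to 117970047). This palindromic motif occurs in 7.02% of the same promoter windows, so a match is common.
Socs3: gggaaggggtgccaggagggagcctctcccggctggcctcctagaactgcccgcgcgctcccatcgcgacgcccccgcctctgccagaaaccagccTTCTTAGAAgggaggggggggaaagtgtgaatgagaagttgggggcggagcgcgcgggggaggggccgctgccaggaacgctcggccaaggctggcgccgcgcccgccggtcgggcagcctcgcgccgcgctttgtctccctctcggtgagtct

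Immediate early genes, which neurons and other cells switch on within minutes of stimulation, went in both directions. Junb measured 23.2, 27.7 and 36.8 in chow and 65.0, 57.2, 66.9 and 69.4 in HFD and rose by 1.14 (adjusted p = 0.0412), or 1.31 without chow replicate 3. Fos measured 9.27, 16.7 and 39.0 in chow and 93.0, 67.7, 97.3 and 48.3 in HFD. Chow replicate 3 lay nearest to the HFD libraries, and Fos passed without it (2.47, adjusted p = 0.0149) but not with it (1.95, adjusted p = 0.0676). Crem, a repressor of cyclic AMP response elements (0.91), and Btg2 (0.56) were also higher in each HFD library. Klf4 (-1.34), Ier5 (-0.91), Gadd45b (-0.88) and the clock gene Per1 (-0.68) were lower in each. Egr1 overlapped, at 0.53 (0.85 without chow replicate 3). The list of 21 had a median of 0.33, and 0.40 without chow replicate 3. Without overlap 4 were higher and 4 lower, against 8.34% and 7.78% of all genes.

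Protein-folding genes were higher across compartments. Hsph1, a partner of HSP70 that resets its nucleotide, measured 213, 262 and 320 in chow and 619, 473, 564 and 567 in HFD. It rose by 1.08 (SE 0.16, adjusted p = 0.0238), and by 1.22 without chow replicate 3 (adjusted p = 0.0149). Stip1, which links HSP70 to HSP90, measured 287, 323 and 405 against 580.5, 504.5, 600.4 and 572, and Chordc1, an HSP90 partner, 56.2, 55.3 and 96.2 against 174, 113, 197 and 132. Neither gene's groups overlapped, and both genes passed without chow replicate 3 (0.89 and 1.41, adjusted p = 0.0496 for both) but not with it (0.75 and 1.16).

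Hsph1 is shown for its promoter because it is the heat shock gene that passed with all 7 libraries. Inverted heat shock units, TTCNNGAA, are in capitals, and the match begins 33 bases before the more distal of 2 RefSeq starts (GRCm38.p6, chr5:149636337-149636586, minus strand, 5′ to 3′). The motif is a palindrome and occurs in 7.17% of the promoter windows.
Hsph1: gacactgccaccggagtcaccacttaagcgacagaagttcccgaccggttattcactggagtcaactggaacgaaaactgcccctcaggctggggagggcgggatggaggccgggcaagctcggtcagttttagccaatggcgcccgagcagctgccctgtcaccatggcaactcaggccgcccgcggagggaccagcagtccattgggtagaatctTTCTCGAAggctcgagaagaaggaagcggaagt

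A list of 33 cytosolic and mitochondrial heat shock proteins was written after those calls had been seen, so its counts describe a pattern and do not test it. Of the 33, 22 were higher in all HFD libraries, against 8.34% of all genes, and none was lower without overlap (0 of 33). The median was 0.53 with or without chow replicate 3. Hspa8, the constitutive HSP70 (0.59), Hsp90aa1 (0.50), the HSP40 co-chaperone Dnaja1 (0.54) and the chaperonin subunit Cct5 (0.69) were among them. The summed level was 11220 to 12140 in chow and 15290 to 20410 in HFD. Chaperones of the endoplasmic reticulum were in a list of their own, in which 12 of 29 were higher in each HFD library, against 8.34% of all genes. None of them passed (0 of 29, with 15 at an unadjusted p under 0.05), and the median was 0.38 (0.25 without chow replicate 3). Hspa5, the HSP70 of that compartment, measured 804, 868 and 761 in chow and 1505, 1159, 1315 and 1227 in HFD (0.68, adjusted p = 0.0649). The disulfide isomerases Pdia6 (0.71) and Pdia3 (0.50), Hsp90b1 (0.65), Creld2 (0.68), Sdf2l1 (0.71) and the transcription factor Xbp1 (0.46) were higher as well, and Edem1, which removes misfolded proteins, was lower (-0.75).

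Rbm3, an RNA-binding protein induced by cold, went the other way. It measured 270.4, 207 and 107 in chow and 73.8, 71.0, 102 and 78.6 in HFD, with chow replicate 3 next to the HFD libraries. It fell without that library (-1.54, adjusted p = 0.0149) and did not pass with it (-1.16, adjusted p = 0.0847). Its relative Cirbp was at -0.36, with overlap, and at -0.65 without chow replicate 3. The labels give no temperature, time of day or interval from death to lysis, and whether these differed between the groups was not tested.

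**Figure D4:**
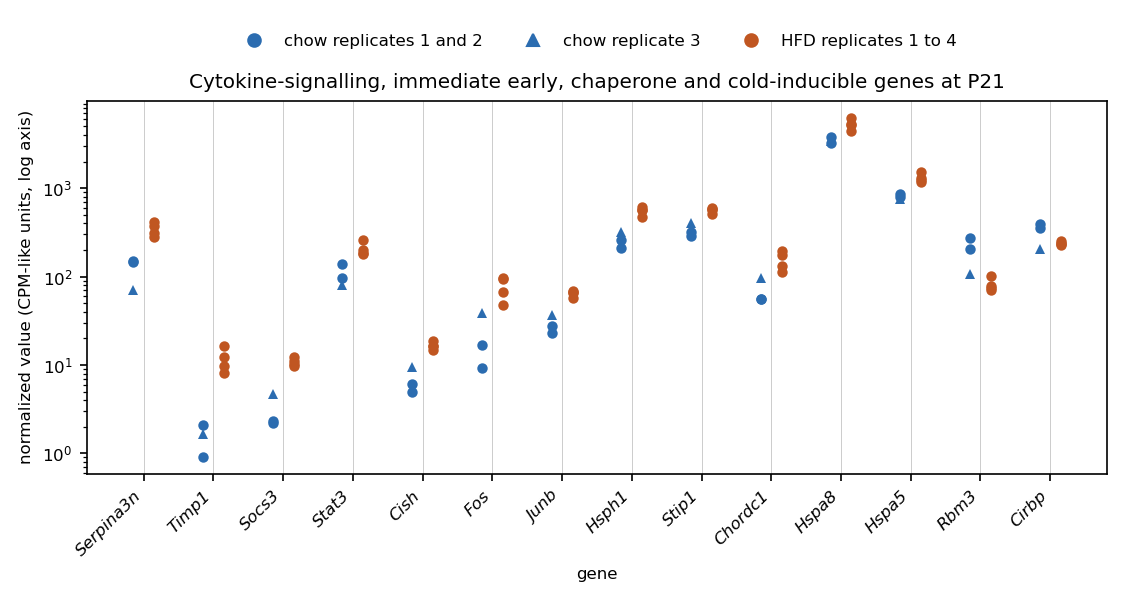
Normalized values (log axis) of 14 cytokine-signalling, immediate early, chaperone and cold-inducible genes in the 3 chow (blue, replicate 3 as a triangle) and 4 HFD (orange) libraries. The groups are apart for the genes shown except Cirbp. Of the chow libraries, replicate 3 lies nearest to the HFD libraries for Socs3, Cish, Fos, Junb, Hsph1, Stip1, Chordc1 and Rbm3.

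Lipid and interferon genes gave no call (0 of 27 and 0 of 18, with 9 and 4 at an unadjusted p under 0.05). In the lipid list the neuronal carnitine palmitoyltransferase Cpt1c (0.46) and the cholesterol synthesis enzyme Sqle (0.33) were higher in each HFD library and the lipogenic factor Srebf1 lower (-0.33). Abca1, a cholesterol exporter, overlapped at -0.74. The interferon list had a median of -0.40 (-0.43 without chow replicate 3). Without overlap 5 of its 18 genes were lower and 1 higher, against 7.78% and 8.34% of all genes. In this list Ifit1 measured 8.33, 5.18 and 8.04 in chow and 0.95, 2.48, 1.83 and 1.06 in HFD (-1.68, adjusted p = 0.0676). Ifitm3 (-0.86), H2-K1 (-0.83, or -0.53 without chow replicate 3), Bst2 (-0.47) and Psmb9 (-0.38) were lower too, and Irf9, a subunit of the interferon-activated factor, higher (0.47).

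Astrocyte genes were lower in HFD offspring. Of 28, 4 fell (Hepacam, Gjb6, Apoe and Agt) and 19 were lower in all 4 HFD libraries, against 7.78% of all genes. The median was -0.86, and -0.70 without chow replicate 3. In that setting 19 lay below the chow range, against 11.0% of all genes, a count that leaving out a library cannot lower. None passed then (0 of 28, with 20 at an unadjusted p under 0.05). Hepacam, an adhesion protein of astrocyte endfeet, measured 77.3, 98.3 and 136 in chow and 32.4, 45.0, 35.7 and 42.9 in HFD. The highest HFD value was well under the lowest chow value, and it fell by 1.36 (SE 0.21, adjusted p = 0.0277). Gjb6, the gap-junction protein connexin 30, fell from 116, 126 and 162 to 46.0, 47.5, 77.0 and 46.9, a difference of -1.31. Apoe, the lipid carrier of astrocytes and microglia, fell from 2560.2, 2851 and 3593 to 1203, 1625, 1597 and 989 (-1.16). Agt, angiotensinogen, fell from 421, 451 and 468 to 179, 195, 282 and 166 (-1.15).

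Other astrocyte markers did not pass. The GABA transporter Slc6a11 was at -1.13 (adjusted p = 0.0649) and the folate enzyme Aldh1l1 at -0.86 (-0.54 without chow replicate 3), both without overlap. The water channel Aqp4 measured 71.4, 113 and 174 in chow and 70.1, 88.9, 71.6 and 48.9 in HFD, which overlap (-0.70, or -0.39 without chow replicate 3). Gfap, the filament protein raised in reactive astrocytes, measured 304, 471 and 192 in chow and 214, 320.5, 122.5 and 86.2 in HFD, which overlap too (-0.87). Without chow replicate 3 the differences of Hepacam, Gjb6, Apoe and Agt were -1.15, -1.17, -1.03 and -1.11, with adjusted p from 0.108 to 0.156.

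Oligodendrocyte genes were lower in HFD offspring too. All 25 genes of mature oligodendrocytes were below 0 (median -1.10), and Sirt2 passed. Of the 25, 12 were lower without overlap, against 7.78% of all genes. Sirt2, a deacetylase abundant in myelin, fell from 292.5, 362 and 406 to 156, 206, 207 and 155.5 (-0.96, adjusted p = 0.0439). Mbp, myelin basic protein, measured 3257, 4968 and 6296 in chow and 1403, 2567, 2425 and 1299 in HFD (-1.35, adjusted p = 0.0727), and Mag, a myelin adhesion protein, was at -1.47. Mog, a defining marker on the myelin surface, was at -1.19 (-0.78 without chow replicate 3) and overlapped between groups. Without chow replicate 3 the median was -0.75. In that setting 12 lay below the chow range, against 11.0% of all genes, a count that leaving out a library cannot lower. The summed level was 9646, 14400 and 22180 in chow and 5116, 7927, 8932 and 4939 in HFD, so chow replicate 1 lay nearer to HFD replicate 3 than to chow replicate 3.

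Precursors of the lineage went the same way. All 15 genes were below 0, with a median of -0.89 (-0.63 without chow replicate 3). Of the 15, 7 were lower without overlap, against 7.78% of all genes, among them Olig1 (-1.12), Sox10 (-1.10), Gpr17 (-1.01) and Pdgfra (-0.89). None passed (0 of 15, with 9 at an unadjusted p under 0.05). Of the microglial genes 24 of 25 were below 0, with a median of -0.82 (-0.57 without chow replicate 3). Lower without overlap were 11 of 25, against 7.78% of all genes. Tyrobp (-1.12), C1qc (-1.01, adjusted p = 0.0649) and Csf1r (-0.89) did not overlap, and Cx3cr1 did, at -0.42 (-0.18 without chow replicate 3). Again none passed (0 of 25, with 16 at an unadjusted p under 0.05).

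Tanycytes, the glia that line the third ventricle, had a median of -0.31 (-0.255 without chow replicate 3). None of their genes passed (0 of 23, with 9 at an unadjusted p under 0.05). Without overlap 6 were lower and 2 higher, against 7.78% and 8.34% of all genes. The receptors Notch1 (-1.18) and Notch2 (-1.08) and the Notch target Hes5 (-1.21) were lower in each HFD library. Of the exonic bases of Hes5, 31.8% are shared with another annotated gene. Crym (0.43) and the filament gene Vim (0.67) were higher in each. The tanycyte factor Rax was near the detection minimum and overlapped.

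Vascular genes were lower with no call (0 of 52, with 20 at an unadjusted p under 0.05). Among 23 endothelial genes 7 were lower without overlap, against 7.78% of all genes. These included the receptor Tek (-1.38), the transporter Slco1a4 (-1.36) and the tight-junction protein Cldn5 (-1.04). The endothelial median was -0.76 (-0.71 without chow replicate 3). Among 12 pericyte genes (median -0.505, or -0.40 without chow replicate 3) 2 were lower without overlap, against 7.78% of all genes. These were Notch3 (-0.91) and Ndufa4l2 (-0.57). Ndufa4l2 was near the minimum of 1, at 2.71 to 3.34 in chow and 0.98 to 2.61 in HFD. Pdgfrb was at -1.31 with overlap. Among 17 fibroblast and meningeal genes 4 were lower without overlap, against 7.78% of all genes. These were the collagens Col4a1 (-1.13) and Col1a2 (-0.72), Islr (-1.01) and the proteoglycan Dcn (-0.62). The list had a median of -0.61 (-0.77 without chow replicate 3). The summed endothelial level, which abundant transporters dominate, overlapped at 1734 to 1920 in chow and 1590.0 to 1841 in HFD.

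Of the 14 choroid plexus and ependymal genes tested, 4 were lower without overlap, against 7.78% of all genes. These were Otx2 (-1.50), Ccdc153 (-1.44), Rarres2 (-1.02) and Foxj1 (-0.99, or -0.66 without chow replicate 3). None passed (0 of 14, with 4 at an unadjusted p under 0.05). The list had a median of -0.505 (-0.332 without chow replicate 3). The defining choroid markers were low or mixed, Ttr at 0.42 with overlap and Folr1 at or below 3.17 in each library and at 0 in HFD replicate 3. Erythroid and pituitary markers (3 and 2 genes tested) overlapped between the groups. The summed erythroid level was 204.7 in chow replicate 3 and at most 91.4 in the other 6 libraries, and the summed pituitary level was highest in HFD replicate 4 at 49.3 and in chow replicate 3 at 35.6.

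The remaining falls were of genes outside the lists. Clic5, an intracellular chloride channel protein, measured 5.64, 6.69 and 5.15 in chow and 0.46, 0.33, 0.64 and 0.70 in HFD, and it fell by 2.16 (adjusted p = 0.0199). Deaf1, a transcription factor, fell from 122, 128 and 109.9 to 60.9, 68.0, 56.3 and 57.2 (-0.98), and its chow replicate 3 was the lowest chow library. Both sat at the threshold without that library (-2.23, adjusted p = 0.0517, and -1.04, adjusted p = 0.0513). Carhsp1, an RNA-binding phosphoprotein, fell by 1.17, the membrane proteins Mpzl1, Lhfp and Ttyh1 by 1.09, 1.38 and 1.04. For those 4 genes chow replicate 3 was the highest library and the adjusted p without it was 0.108 to 0.182.

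The level of the other cell types moved with diet. The mean log2 level of the 73 tested oligodendrocyte, microglial and endothelial genes was 4.95, 5.36 and 5.85 in chow and 4.28, 4.70, 4.87 and 4.29 in HFD, with no overlap. With that level as a covariate no gene passed (0 of 14070 by limma, with 868 at an unadjusted p under 0.05, against 2393 without it). The differences then came to 1.25 for Cartpt, 1.13 for Npy1r, 1.15 for Asb4, 3.30 for Fos, 1.31 for Hsph1 and -0.87 for Hepacam. The median of the astrocyte list, whose genes are not part of this level, came to -0.32, that of the STAT3 list to 0.79 and that of the heat shock list to 0.56. Its part in each result beyond these values was not tested, and with the groups apart on it the diet and this level cannot be told apart. In these bulk pulldowns fewer cells of a type, less RNA per cell and less untagged RNA carried through the pulldown cannot be told apart either.

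Age was compared through an interaction of diet and age over all 17 libraries, in which the P21 difference is set against that at P0. Of 15037 genes tested, 4 passed (0.0266%), Col11a2, Heatr8, Hepacam and Tmtc4, with 2290 at an unadjusted p of 0.05. Heatr8 was at 7.43, 5.53, 7.32, 7.89 and 9.53 in chow P0 and 4.18, 2.20, 2.00, 3.32 and 4.39 in HFD P0, so HFD was lower at birth (-1.04) and higher at weaning (1.17). The interaction was 2.21 (SE 0.32, adjusted p = 0.00618). Hepacam differed by 0.43 at P0 and by -1.36 at P21 (interaction -1.79, adjusted p = 0.0106), and Tmtc4 by -0.52 and 1.62 (interaction 2.14, adjusted p = 0.0315).

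Col11a2, a fibrillar collagen chain, was at 0.06, 0.00, 0.26, 0.28 and 0.52 in chow P0 and 2.49, 3.35, 2.82, 5.88 and 1.99 in HFD P0. At P21 it was at 5.43, 8.90 and 10.9 in chow and 3.40, 3.90, 2.68 and 3.46 in HFD, where it was lower in each library (-1.07, adjusted p = 0.132). The interaction was -2.84 (adjusted p = 0.00618). Of the 14 genes that rose at P21, 13 had a difference below 0 at P0 (median -0.53), among them Cartpt (-0.53), Npy1r (-0.80), Asb4 (-0.60), Rrad (-0.95) and Cited1 (-0.84). The median over all genes at P0 was -0.002, and none of the 14 passed at P0 (0 of 14 by limma, with 4 at an unadjusted p under 0.05 and a lowest adjusted p of 0.131). Pomc itself was at -1.16 at P0 (adjusted p = 0.621 by limma). Its share of the summed values ran from 0.010% to 0.124% over the P0 libraries. Whether the Pomc content of a library bears on these P0 differences was not tested. Of the 10 falls that were also tested at P0, 6 were above and 4 below 0, with a median of 0.01. The heat shock list had a median of -0.11 at P0, that of astrocytes -0.10 and that of mature oligodendrocytes -0.39. Leaving out chow P21 replicate 1 gave 47 interaction calls, and leaving out HFD P21 replicate 1 or 2 gave 36 or 14. Leaving out chow P21 replicate 2 gave 2.

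**Figure D5:**
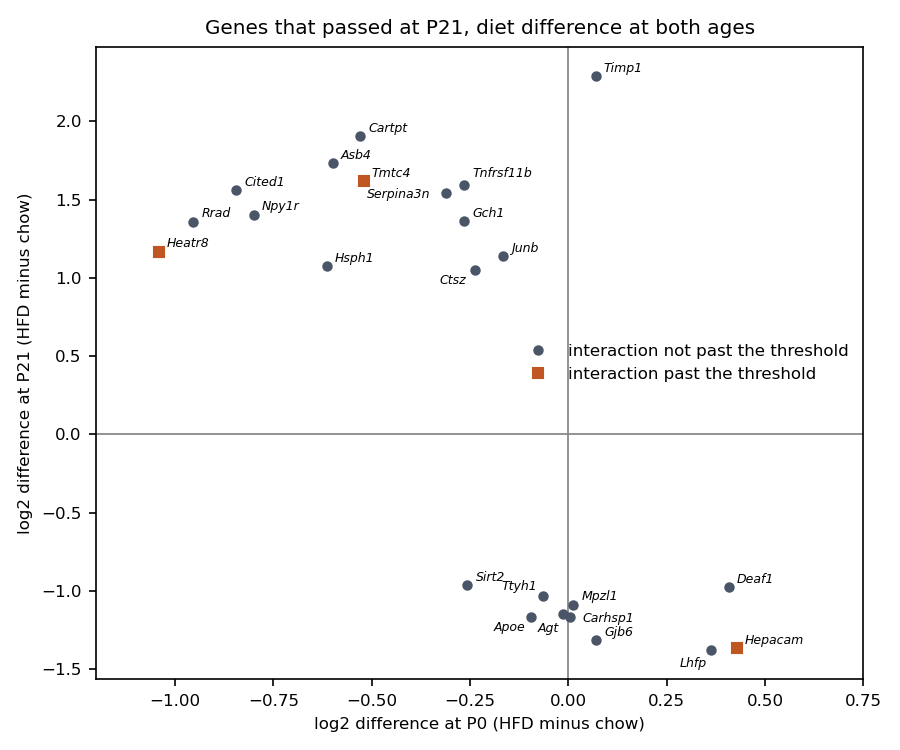
Log2 difference (HFD minus chow) at P0 (x axis, 5 and 5 libraries) and P21 (y axis, 4 and 3 libraries) of 24 of the 25 genes that passed at P21 (Clic5 was not tested at P0), squares marking those whose interaction passed. Of the 14 genes that rose at P21, 13 lie left of 0 on the P0 axis.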

How the data were processed

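RNA from tagged ribosomes was sequenced as 50-base single reads from Nextera XT libraries, per the labels' protocols. The submitters' processing notes name FastQC, TopHat2 2.0.13, Picard 1.80, HTSeq 0.6.1, edgeR and mm10. The strand setting and the gene annotation were not given in the sources used here, nor were other settings. The deposited signal values are 1 normalized number per gene and library for 15355 genes, on a scale close to CPM with 2 decimals, and not read counts. Depth was estimated from the value of 1 read in each column. Another 15 columns of the table are empty.

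The test was limma (version 3.58.1, R 4.3.3), run with log2(value + 1) and a prior variance that follows intensity, two-sided, at a Benjamini-Hochberg adjusted p of 0.05. Genes were tested when above 1 in at least 3 of the 7 P21 libraries. The same test over 17 libraries gave the interaction of diet and age. "No overlap" means that all HFD libraries lay on 1 side of all chow libraries. The code was tested on simulated data. No count model was run because the values are normalized.

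The comparison, the gene lists and the genes to be named were chosen with earlier results of these data known. Named were Pomc, Cartpt, Agrp, Npy, Lepr, the genes that passed, and in each list the 3 defining genes and up to 4 members with the smallest p, as far as they bear on a result. Further members were picked for their lack of overlap after their values were seen. The heat shock and cold-inducible lists were written after the calls were seen. Sequences and starts are from RefSeq (GRCm38.p6) and gene positions from GENCODE on GRCm38, in which 159 of 160 named genes matched by symbol (not Heatr8). Of these, 13 share over 10% of their exonic bases with another gene, and counts of such pairs are uncertain where strand was not used: Agrp, Aldh1l1, Cish, Csf1r, Dnaja1, Hes5, Hsp90b1, Kcnj3, Penk, Rarres2, Rax, Syt4 and Tmtc4. A few genes are not reported here. Alternatives were other pseudocounts, filters, scalings, priors and designs, and leaving out each library.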

Additional observations from a re-analysis of the deposited data

Results flagged for a closer look

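Of 160 genes examined, 7 had 1 HFD library far from the other 3 by Dixon's criterion, which chance meets in about 1 of 20 groups. HFD replicate 2 stood above the others for Lepr (12.79 against 7.97 to 8.66), Lhfp (23.43 against 14.03 to 15.03) and Dlx1 (5.55 against 3.49 to 3.56). HFD replicate 3 stood above them for Gjb6 (77.03 against 45.99 to 47.53) and Map1b (1269.26 against 996.96 to 1040.1), and below them for Scn3b (97.0 against 105.17 to 105.65). HFD replicate 1 stood above them for Gad2 (324.12 against 254.93 to 262.19). For each of these genes the HFD and chow libraries remain apart whether or not that library is counted, since the groups do not overlap. The chow group, with 3 libraries, is too small for the criterion.

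The difference between the diets depended on age for 4 genes by the interaction in limma. On the log2 scale it was -2.84 for Col11a2, 2.21 for Heatr8, -1.79 for Hepacam and 2.14 for Tmtc4.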

How the results depend on the processing

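The number of genes that differed between the diets at P21, 25, moved by over 1.5 times under several settings. It was 16 with no filter on low values, 42 with a robust prior, 1 with no trend in the prior variance and 0 with the glial and endothelial level as a covariate. Leaving out 1 library gave 3 to 51 genes. A fit of all 17 libraries in 4 groups gave 3 higher and 18 lower genes, of which 9 were shared with the 25. The same-sum scaling gave 35 and shared 24. The interaction count, 4, was 9 with the same-sum scaling and 2 with no trend, and leaving out 1 library gave 2 to 47. The cause was not tested in any of these.

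With the replicate block, over replicates 1 to 3 of both diets, 32 genes passed (11 higher, 21 lower), 14 of them shared with the 25, against 7 in the same 6 libraries without it. The block within each age gave 65 interaction calls. The labels do not say what a number stands for, and deviations of same-numbered libraries correlated at -0.04, -0.049 and 0.11 over 14070 genes, so the numbers were not taken as pairs.

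Over the 160 named genes and their alternatives, 3088 values kept direction and call, 214 lost the call, 35 gained it and 10 reversed. Only the 25 genes that passed in the main fit could lose a call. Most kept values were of genes that passed in neither fit. Calls lost were 25 with the glial and endothelial covariate, 24 with no trend and 1 with the same-sum scaling. They were 22 without HFD replicate 1 and 20 without chow replicate 2. All 10 reversals came with the glial and endothelial covariate. These were Agrp -0.66, Npy -0.56, Gabrq -0.26, Mc3r -0.0063, Aqp4 0.26, Cx3cr1 0.20, Mog 0.20, Slc17a7 0.13, Vamp1 0.093 and Ccdc153 0.061. Each list median with a sign given in the report kept it under the 3 scalings. The settings with the 2-of-6 filter and the 6 libraries without the block were added after the data were seen.

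With 1 read worth 0.0275 to 0.0460, values near the minimum of 1 rest on the fewest reads, and 3 against 4 libraries limit the precision of every value.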
